A study of Mus musculus with 12 samples.

Results

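The 8 Toll-like receptors Tlr1, Tlr2, Tlr3, Tlr4, Tlr7, Tlr8, Tlr9 and Tlr13, the co-receptor Cd14 and the adaptor Myd88 are described here across the cells of newborn mouse meninges, the membranes that wrap the brain. The 10 genes were taken by symbol from the 28694 gene rows of 4 single-cell RNA libraries, and each was found in all 4. All mice were C57Bl/6j pups at postnatal day 4. HI 1 and HI 2 were libraries of pups 6 h after hypoxia-ischemia, a brain injury caused by low oxygen together with reduced blood flow, and naive 1 and naive 2 were libraries of pups without it. Each library pooled 12 mice, 6 males and 6 females, so animals within a pool cannot be told apart, and the series holds no sham-operated group. The 4 libraries were handled in 2 runs with an HI and a naive pool in each, and the labels do not say which number went with which run.

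Toll-like receptors are sensors of microbial and damage-derived molecules, and macrophages are among the cells that carry most of them. Tlr1, Tlr2 and Tlr4 sit at the cell surface, where Cd14 hands lipopolysaccharide to Tlr4 and its partner Ly96. Tlr3, Tlr7, Tlr8, Tlr9 and Tlr13 sit in endosomes and bind nucleic acids. All but Tlr3 signal through Myd88 to NF-kB and to interferon regulatory factors, and Tlr3 signals through another adaptor, Ticam1.

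After filtering, 4070, 6081, 4912 and 5662 cells were kept in HI 1, HI 2, naive 1 and naive 2, with a median of 11091, 9574, 10802 and 9940 UMIs (unique molecular identifiers, each standing for 1 captured RNA) per cell. Cells were assigned to classes by marker lists that held none of the 10 genes, and 94.4% of the 20725 kept cells received a class, named here as "-like" for the markers it carried. Border-associated macrophage-like (BAM-like) cells made up 72.0%, 73.7%, 67.3% and 71.9% of the cells of HI 1, HI 2, naive 1 and naive 2. The 10 markers of BAM (Mrc1, F13a1, Pf4 and others) and the 10 of microglia were all detected in their own class. Cells were assigned by these same markers, so this is no separate check of the class names. B-cell receptor contigs from the same pools were found in at least 96.3% of B cell-like cells of each library, and T-cell receptor contigs in 54.5% to 95.2% of T cell-like cells. Between 26 and 51 cell barcodes were shared by any pair of libraries. Mature neutrophil-like cells were 3.29% and 1.79% of the HI libraries, against 0.550% and 0.848% of the naive libraries.

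The promoters of 4 of the genes are shown, because Tlr9, Tlr13 and Myd88 were called higher in BAM-like cells after HI and Tlr8 separated BAM-like from microglia-like cells. Each is the 250 bases before the annotated start, 5′ to 3′ on the gene's own strand, from RefSeq's GRCm38.p6 annotation, the build of the deposited files. Capitals mark 1 of 4 short motifs searched on both strands: GAGGAA, the core bound by PU.1 and related ETS factors, GAAA followed by GAAA with any 2 bases between, the core of the interferon-stimulated element, GGG followed by TTCC with any 3 bases between, for NF-kB, and ACGTG for hypoxia-inducible factors.
Tlr9 (chr9:106222348-106222597, plus strand): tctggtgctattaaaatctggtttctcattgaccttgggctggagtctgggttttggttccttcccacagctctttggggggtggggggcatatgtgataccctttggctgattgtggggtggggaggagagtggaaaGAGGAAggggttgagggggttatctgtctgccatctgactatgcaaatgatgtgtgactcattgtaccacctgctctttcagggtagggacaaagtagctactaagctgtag
Tlr13 (chrX:106143025-106143274, plus strand): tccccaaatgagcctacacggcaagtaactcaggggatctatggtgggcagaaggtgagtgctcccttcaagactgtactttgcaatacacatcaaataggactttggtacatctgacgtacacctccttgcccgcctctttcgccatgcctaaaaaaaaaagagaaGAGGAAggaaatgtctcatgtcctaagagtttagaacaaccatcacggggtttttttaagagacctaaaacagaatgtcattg
Myd88 (chr9:119340019-119340268, minus strand): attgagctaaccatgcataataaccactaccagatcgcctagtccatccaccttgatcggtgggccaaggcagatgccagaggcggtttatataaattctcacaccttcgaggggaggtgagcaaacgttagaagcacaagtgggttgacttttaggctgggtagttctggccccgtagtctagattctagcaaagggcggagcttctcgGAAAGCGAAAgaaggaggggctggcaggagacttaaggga
Tlr8 (chrX:167264330-167264579, minus strand): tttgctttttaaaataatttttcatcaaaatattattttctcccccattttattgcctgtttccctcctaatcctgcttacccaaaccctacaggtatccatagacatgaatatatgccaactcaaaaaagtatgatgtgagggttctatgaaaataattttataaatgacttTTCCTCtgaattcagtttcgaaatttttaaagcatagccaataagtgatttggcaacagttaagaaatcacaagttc

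The Tlr9, Tlr13 and Tlr8 windows held GAGGAA, starting 112, 83 and 77 bases before the start, and in Tlr8 it lay on the opposite strand. The Myd88 window held the interferon-stimulated core, starting 40 bases before the start. Of 32851 RefSeq windows of the same length, 23.3% held GAGGAA, 2.98% the interferon-stimulated core, 4.65% the NF-kB motif and 16.6% ACGTG. Of the 7 members with a window, GAGGAA was also in that of Tlr1, the NF-kB motif was in those of Tlr2 and Tlr3, and ACGTG was in that of Tlr1. Tlr9 and Myd88 lie on chromosome 9 and Tlr13, Tlr7 and Tlr8 on chromosome X, where Tlr7 and Tlr8 are neighbours.

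In naive meninges the receptors were mostly highest in myeloid classes, and no class had the highest level of every gene. Levels are CPM, the UMIs of a gene per 1000000 UMIs of the class, given for naive 1 and naive 2 in that order unless HI is named, and genes are compared with themselves across classes, not with each other. In all, 9 classes had at least 20 cells in both naive libraries. BAM-like cells held from 41.1% of the UMIs of a member (Tlr3 in naive 1) to 90.6% (Tlr8 in naive 1), while they held 67.1% to 73.6% of all UMIs over the 4 libraries. Differences between classes were tested with edgeR's quasi-likelihood test on counts summed per class and library, with library as a term and Benjamini-Hochberg (BH) adjustment over all 8872 genes tested. Tlr3 did not pass that fit's filter on low counts, so 9 of the 10 genes were tested.

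**Figure D1:**
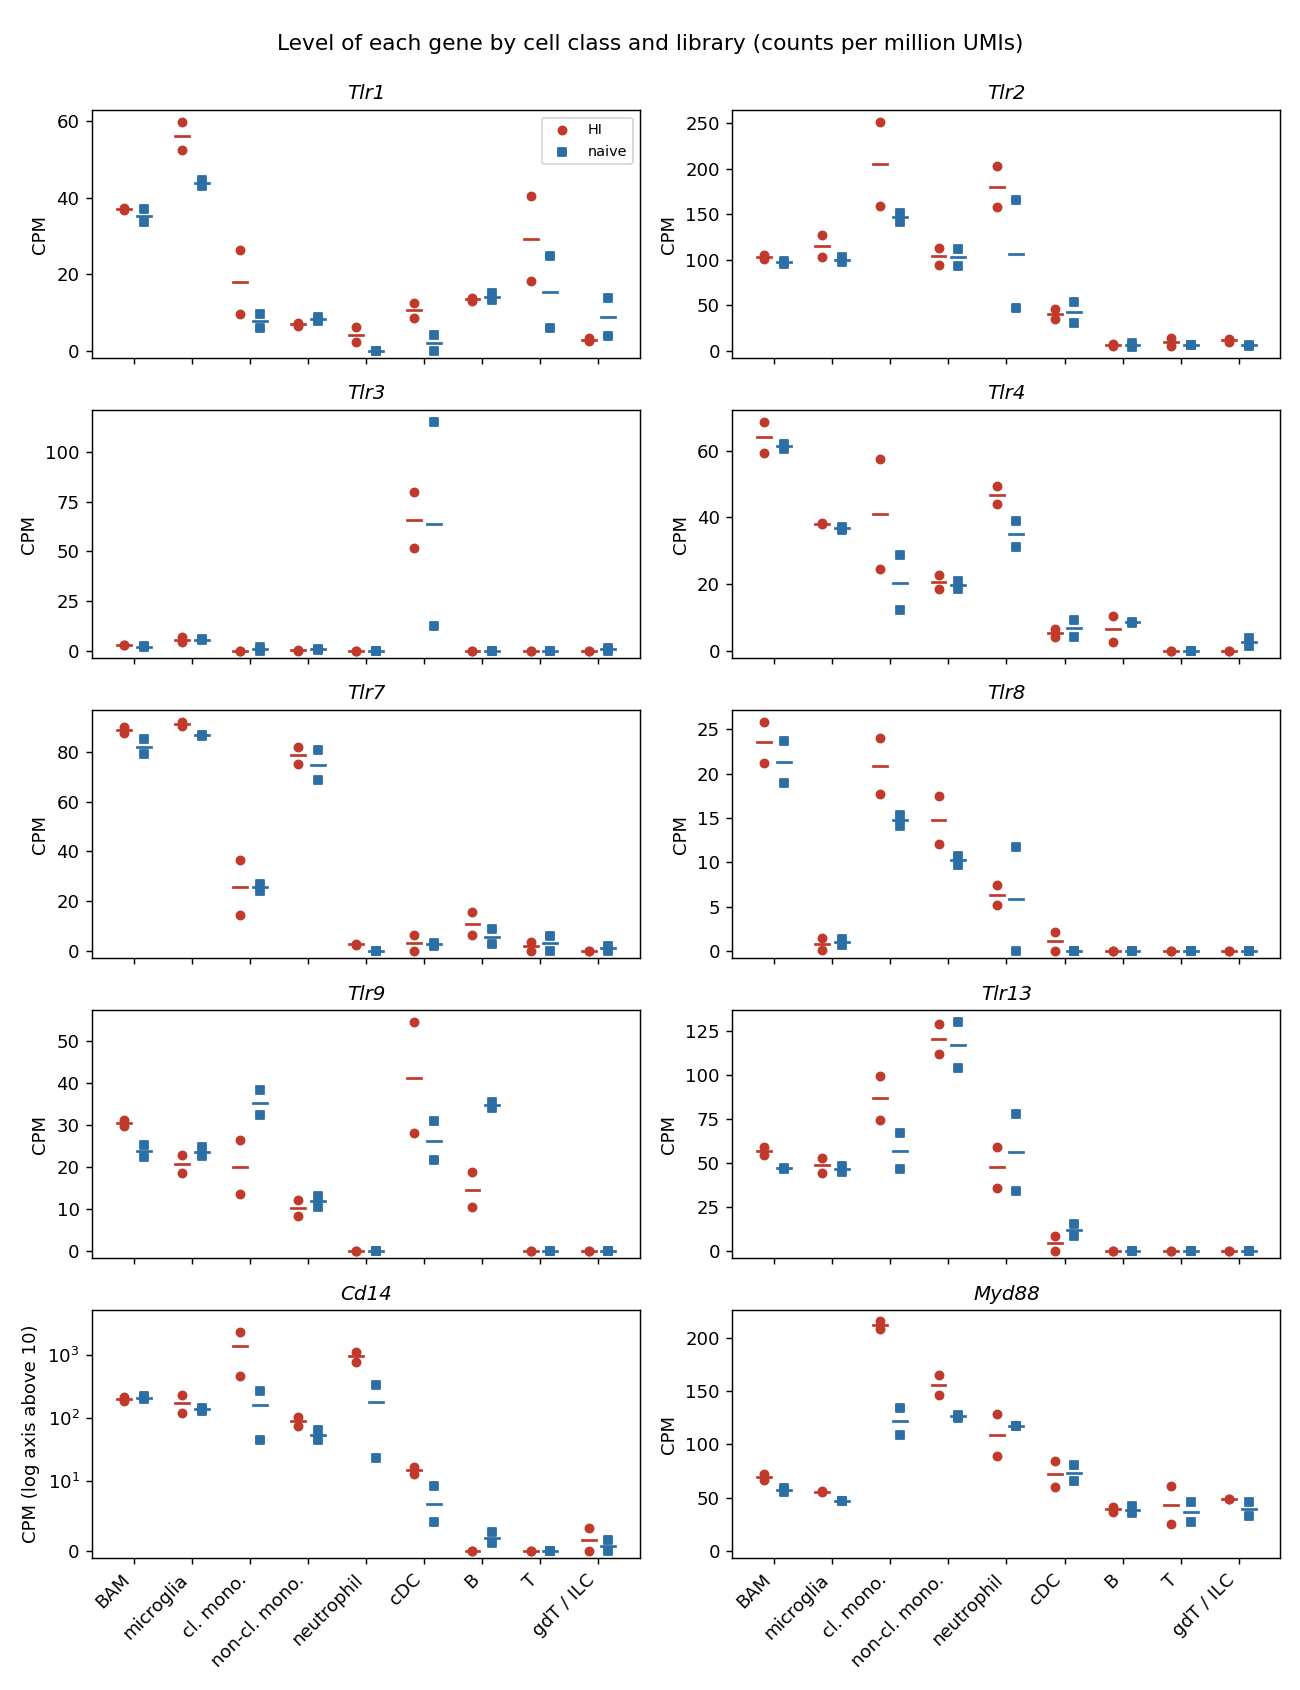
Level of each of the 10 genes in 9 cell classes, in CPM (Cd14 on an axis that is logarithmic above 10). Circles are the 2 HI libraries, squares the 2 naive libraries and bars their means; Tlr8 was near 1 CPM in naive microglia-like cells, against 23.7 and 19.0 CPM in naive BAM-like cells, and Tlr3 stood out in dendritic cell-like (cDC) cells.

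Among the surface receptors, Tlr4, the lipopolysaccharide receptor, was highest in BAM-like cells. It reached 37.1 and 36.3 CPM in microglia-like cells and 60.5 and 62.0 CPM in BAM-like cells, a log2 difference of -0.72 ± 0.11 (SE, BH-adjusted p = 1.35e-05, edgeR). Non-classical monocyte-like cells, the patrolling Ace+ Treml4+ monocytes, held 20.8 and 18.6 CPM, which was lower than in BAM-like cells by a log2 difference of -1.68 ± 0.16 (adjusted p = 3.67e-08, edgeR). No Tlr4 UMI was seen in T cell-like cells of either naive library, which puts T cell-like cells at least 13.5-fold lower than BAM-like cells, with a floor of 3 counts over both libraries.

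Cd14 stood at 144.3 and 128.8 CPM in microglia-like cells and 220.8 and 194.8 CPM in BAM-like cells. That difference missed the threshold, at a log2 difference of -0.59 ± 0.25 (adjusted p = 0.0527, edgeR). Non-classical monocyte-like cells had 63.0 and 44.5 CPM of Cd14, a log2 difference of -2.02 ± 0.33 from BAM-like cells (adjusted p = 2.77e-05, edgeR). Classical monocyte-like and mature neutrophil-like cells had levels that the libraries did not share, with 268.2 and 44.4 CPM in classical monocyte-like and 331.7 and 23.4 CPM in mature neutrophil-like cells. Cd14 was detected in 86.4% and 80.7% of naive BAM-like cells at a median depth of 11132.5 and 10280.5 UMIs, against 0 of 35 and 0 of 33 T cell-like cells at 8940 and 7973 UMIs.

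Tlr2, which pairs with Tlr1 or Tlr6 to sense bacterial lipoproteins, had overlapping levels in 3 macrophage and monocyte classes. It stood at 102.6 and 97.7 CPM in microglia-like, 93.2 and 112.5 CPM in non-classical monocyte-like and 95.9 and 98.3 CPM in BAM-like cells. Classical monocyte-like cells, the Ly6c2+ Ccr2+ monocytes, had the highest mean, 141.8 and 151.4 CPM, which was 0.52 ± 0.20 higher on the log2 scale than in BAM-like cells (adjusted p = 0.0429, edgeR). Mature neutrophil-like cells held 165.8 and 46.7 CPM, a range that overlapped the classical monocyte-like one. The 3 lymphoid classes held between 4.39 and 8.21 CPM of Tlr2.

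Tlr1 was higher in microglia-like cells, at 44.7 and 43.1 CPM, than in BAM-like cells, at 33.7 and 37.0 CPM, by 0.33 ± 0.12 on the log2 scale (adjusted p = 0.0282, edgeR). Tlr1 was low in non-classical monocyte-like cells, at 8.91 and 7.69 CPM, a log2 difference of -2.14 ± 0.25 from BAM-like cells (adjusted p = 5.29e-07, edgeR). The partner Tlr6, a neighbour and paralog of Tlr1, had 537 and 662 UMIs in BAM-like cells.

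The nucleic acid receptors did not share 1 pattern. Tlr8, an endosomal RNA receptor, had 12 and 5 UMIs in microglia-like cells of naive 1 and naive 2, which is 1.32 and 0.707 CPM, against 23.7 and 19.0 CPM in BAM-like cells. The log2 difference was -4.31 ± 0.26 (adjusted p = 1.07e-09, edgeR). Classical monocyte-like cells held 15.3 and 14.1 CPM of Tlr8 and non-classical monocyte-like cells 10.7 and 9.71 CPM. No Tlr8 UMI was found in the naive dendritic cell-like, B cell-like, T cell-like or gamma-delta T or innate lymphoid cell-like cells. Tlr7, its neighbour on chromosome X and a receptor for single-stranded RNA, was carried by both macrophage classes and by non-classical monocyte-like cells. It stood at 86.6 and 86.9 CPM in microglia-like and 85.2 and 79.3 CPM in BAM-like cells (log2 difference 0.10 ± 0.11, adjusted p = 0.461, edgeR). Non-classical monocyte-like cells held 68.9 and 80.9 CPM, overlapping BAM-like cells, and classical monocyte-like cells held 26.8 and 24.2 CPM.

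Tlr13, a receptor for bacterial ribosomal RNA, was highest in non-classical monocyte-like cells. It stood there at 130.1 and 103.6 CPM, against 47.2 and 46.7 CPM in BAM-like cells, a log2 difference of 1.26 ± 0.13 (adjusted p = 3.38e-07, edgeR). Microglia-like cells, at 48.4 and 44.7 CPM, overlapped BAM-like cells. So did classical monocyte-like cells, at 67.1 and 46.4 CPM, and mature neutrophil-like cells, at 34.1 and 77.9 CPM. No Tlr13 UMI was found in B cell-like cells, at least 25.7-fold lower than in BAM-like cells, or in T cell-like or gamma-delta T or innate lymphoid cell-like cells.

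Tlr9, the receptor for unmethylated CpG DNA, was carried by classical monocyte-like, B cell-like and dendritic cell-like cells and by both macrophage classes. The highest means were in classical monocyte-like and B cell-like cells, whose levels overlapped. Dendritic cell-like cells held 30.9 and 21.8 CPM. B cell-like cells held 35.6 and 34.0 CPM and BAM-like cells 25.1 and 22.3 CPM, a log2 difference of 0.46 ± 0.18 (adjusted p = 0.0383, edgeR). That call ended without the filter on low counts (0.34, adjusted p = 0.308) and without the library term (0.45, adjusted p = 0.0682). Classical monocyte-like cells had 38.3 and 32.3 CPM from 20 and 16 UMIs, and non-classical monocyte-like cells were lower than BAM-like cells by a log2 difference of -1.06 ± 0.17 (adjusted p = 4.33e-05, edgeR). Mature neutrophil-like and T cell-like cells had no Tlr9 UMI.

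Tlr3, the receptor for double-stranded RNA, was highest in dendritic cell-like cells among the 9 classes, where 14, 33, 29 and 27 cells were captured in HI 1, HI 2, naive 1 and naive 2. They held 79.8 and 51.7 CPM in HI 1 and HI 2 and 115.2 and 12.4 CPM in naive 1 and naive 2, from 19, 24, 56 and 4 UMIs. In BAM-like cells Tlr3 stood at 3.04 and 2.78 CPM in HI and 2.27 and 1.84 CPM in naive libraries. Microglia-like cells had 4.62 and 6.75 CPM in HI and 5.28 and 5.94 CPM in naive libraries.

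The dendritic cell-like cells were then divided by Xcr1 and Clec9a, markers of the type 1 conventional dendritic cell that takes up dead cells. This division was chosen after the values were seen. A Tlr3 UMI was found in 4 of 4, 7 of 8, 13 of 14 and 3 of 8 cells with either marker in HI 1, HI 2, naive 1 and naive 2, against 0 of 10, 2 of 25, 1 of 15 and 0 of 19 cells with neither. By library, the cells with either marker held 202.6 and 178.7 CPM of Tlr3 in HI 1 and HI 2 and 236.9 and 41.5 CPM in naive 1 and naive 2. The cells with neither held 0.00 and 5.87 CPM in HI and 3.94 and 0.00 CPM in naive libraries, below the cells with either marker in each of the 4 libraries. Single cells did overlap, since some cells with a marker had no Tlr3 UMI in HI 2, naive 1 and naive 2. Tlr11, a profilin sensor of mice, stood at 74.7 and 113.7 CPM in HI and 60.3 and 114.2 CPM in naive cells with either marker. Cells with neither held less Tlr11 in each library, at 6.93 and 11.7 CPM in HI and 11.8 and 35.5 CPM in naive libraries, and in naive 2 a Tlr11 UMI was found in 6 of those 19 cells. For Tlr9 the 4 libraries overlapped between the 2 kinds of cell.

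**Figure D2:**
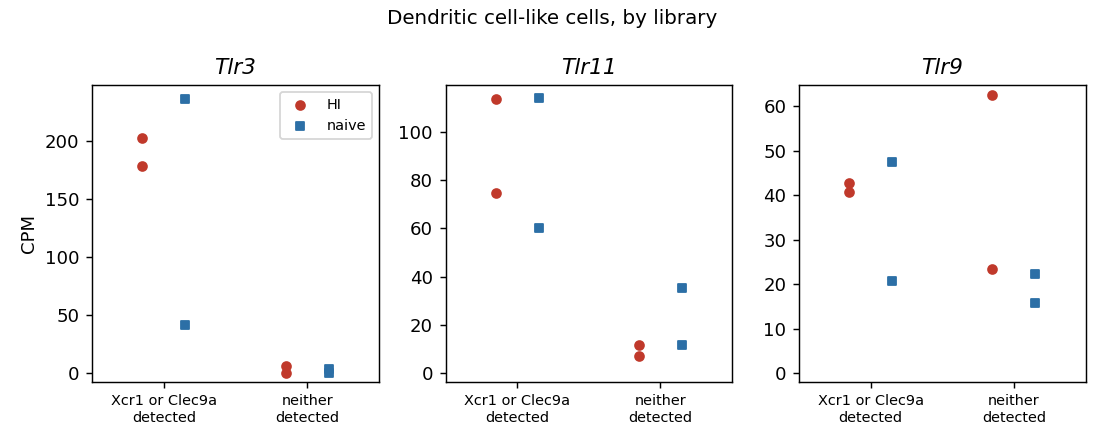
Tlr3, Tlr11 and Tlr9 in dendritic cell-like cells with a UMI of Xcr1 or Clec9a and in those with neither, in CPM, 1 point per library (circles HI, squares naive). Tlr3 was between 41.5 and 236.9 CPM with either marker and at most 5.87 CPM with neither; Tlr9 overlapped.

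Myd88, the shared adaptor, was detected in all 9 classes. Its highest naive levels were 127.7 and 124.6 CPM in non-classical monocyte-like, 134.1 and 109.0 CPM in classical monocyte-like and 117.1 and 116.8 CPM in mature neutrophil-like cells. The classical monocyte-like range overlapped both of the others, and the non-classical monocyte-like range lay above the mature neutrophil-like one. The non-classical monocyte-like level was 1.11 ± 0.11 higher on the log2 scale than the 55.0 and 59.2 CPM of BAM-like cells (adjusted p = 3.38e-08, edgeR). T cell-like cells, at 46.3 and 26.7 CPM, were lower than BAM-like cells by a log2 difference of -0.74 ± 0.27 (adjusted p = 0.0320, edgeR).

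The count of members that passed the test is given beside the share of all genes that did. In microglia-like cells 1 member was called higher and 3 lower than in BAM-like cells, where 55.7% of the 8872 genes were called. In non-classical monocyte-like cells 2 were higher and 5 lower, against 64.2% of genes called. In classical monocyte-like cells 2 were higher and 3 lower (38.2% of genes), and in mature neutrophil-like cells 2 were higher and 3 lower (37.2%). In dendritic cell-like cells 7 were lower and none higher, where 33.6% of genes were called. In B cell-like cells 8 were lower and Tlr9 higher (64.4% of genes), and in T cell-like and in gamma-delta T or innate lymphoid cell-like cells all 9 were lower (47.4% and 56.2%).

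The receptors that were not among the 10 had patterns of their own. Tlr5, the flagellin receptor, stood at 3.19 and 3.96 CPM in naive microglia-like cells and 35.2 and 35.9 CPM in naive BAM-like cells, a log2 difference of -3.30 ± 0.17 (adjusted p = 2.04e-10, edgeR). Tlr11 was 7.74 ± 0.80 higher on the log2 scale in dendritic cell-like than in BAM-like cells (adjusted p = 2.67e-06, edgeR), at 35.0 and 59.1 CPM in naive dendritic cell-like cells.

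The genes most like each member over the 9 classes were found by Pearson's r of log2(CPM + 1) of the mean naive level, among 11700 genes with at least 5 CPM in some class. These r values describe 9 points that share their libraries. Tlr13 was most like Slc11a1, a phagosomal metal transporter (r = 0.99), Cd300a (r = 0.99) and Tlr2 (r = 0.99). Tlr2 had Tlr13 among its own closest 3, beside Ugt1a7c and Cd300a, each at r of 0.98 or 0.99. Myd88 was most like Lilr4b, Lyz1 and Cd300lb (r of 0.99 for each), and Cd14 most like Anxa3 (r = 0.99), Hlx (r = 0.98) and Peli2 (r = 0.98). Tlr4 was most like Fam114a1 (r = 0.98), Prrg2 (r = 0.97) and Litaf (r = 0.96). Tlr8 was most like Zcchc6 (r = 0.96), Aoah, an enzyme that inactivates lipopolysaccharide (r = 0.96), and Irf2bp2 (r = 0.95). Tlr9 was most like Ufsp1, Rassf4 and Ankle2 (r of 0.97, 0.96 and 0.96), Tlr7 like Neurl2, Ncstn and AW549877 (r of 0.96 for each), Tlr1 like Gm9776, Pex14 and Asna1 (r of 0.99, 0.98 and 0.97) and Tlr3 like Fam149a, Rem1 and Pianp (r of 0.98, 0.97 and 0.97).

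Among BAM-like cells, most members had a lower CPM in dividing cells (at least 3 of 6 cell cycle markers such as Mki67). This comparison was added after the data were seen. Dividing cells were 5.36% and 6.16% of BAM-like cells in HI 1 and HI 2 and 6.93% and 7.86% in naive 1 and naive 2. Of the 10 members, Tlr2, Tlr4, Tlr7, Tlr9, Cd14 and Myd88 were called lower and none higher, in a comparison that called 45.3% of 12476 genes, 22.9% of them lower. Tlr9 stood at 24.2, 26.7, 16.6 and 19.5 CPM in dividing and 31.8, 30.1, 26.1 and 22.6 CPM in other BAM-like cells of HI 1, HI 2, naive 1 and naive 2 (log2 difference -0.36 ± 0.09, adjusted p = 0.00148, edgeR with library as a block). Cd14 was at 169.1, 171.1, 178.6 and 166.6 CPM in dividing and 215.2, 185.3, 225.4 and 198.3 CPM in other BAM-like cells (log2 difference -0.28 ± 0.04, adjusted p = 3.73e-06, edgeR). Both genes were lower in CPM in dividing cells of all 4 libraries. The median UMI count was 13275.5 to 15892 in dividing and 9656 to 10915 in other BAM-like cells, and its part in the difference was not tested. CPM is a share of a cell's UMIs, so a lower CPM here does not mean fewer UMIs of the gene per cell. The Tlr2 call ended without HI 1 and without naive 2. Cells with both Lyve1 and Fcna, set against the rest of BAM-like cells, showed none of the 10 called by edgeR, in a comparison that called 14.3% of genes. An unadjusted p under 0.05 was found there for 4 of the 10 and for 3336 of 12617 genes (edgeR).

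After HI, Tlr9, Tlr13 and Myd88 were higher in BAM-like cells of both HI libraries than of both naive libraries, each by 1.22-fold to 1.30-fold. These comparisons ask which members of the pathway changed within a cell class 6 h after injury, and with 2 libraries a group an exact permutation test of 1 gene could not go below 0.333, so they rest on the fit across all genes. Tlr9 stood at 31.3 and 29.8 CPM in HI and 25.1 and 22.3 CPM in naive BAM-like cells (log2 change 0.38 ± 0.08, adjusted p = 0.0387, edgeR). Tlr13 stood at 58.9 and 54.4 CPM in HI and 47.2 and 46.7 CPM in naive BAM-like cells (log2 change 0.28 ± 0.06, adjusted p = 0.0390, edgeR). Myd88 stood at 72.0 and 66.5 CPM in HI and 55.0 and 59.2 CPM in naive BAM-like cells (log2 change 0.29 ± 0.06, adjusted p = 0.0462, edgeR). In all 3 genes the lower HI library was above the higher naive library. This held for 6 of the 10 members, with Tlr2, Tlr3 and Tlr7 not called, so it does not set the 3 genes apart. The share of all genes with groups apart is not given here.

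These were 3 of 10 members called, all higher, where 4.92% of the 13143 genes tested in BAM-like cells were called in either direction and 2.75% higher. All 3 adjusted p-values lay near the threshold, and on simulated counts the same fit made more false calls than that threshold allows. The 10 members had a median log2 change of 0.14, beside a median of 0.00 over all genes tested. All 3 calls ended when either naive library was left out, with adjusted p of 0.0672 and 0.232 for Tlr9, 0.173 and 0.230 for Tlr13 and 0.244 and 0.136 for Myd88 without naive 1 and naive 2. The calls of Tlr13 and Myd88 also ended without HI 1 (adjusted p = 0.0589 and 0.0591, edgeR). Without dividing cells the adjusted p was 0.0535 for Tlr9 and 0.0600 for Myd88, at log2 changes of 0.36 and 0.27.

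The other members in BAM-like cells did not pass. Tlr3 stood at 3.04 and 2.78 CPM in HI and 2.27 and 1.84 CPM in naive libraries (log2 change 0.52 ± 0.18, adjusted p = 0.148, edgeR). Cd14 stood at 211.8 and 184.1 CPM in HI and 220.8 and 194.8 CPM in naive libraries and its groups overlapped (log2 change -0.06 ± 0.08, adjusted p = 0.725, edgeR). Tlr1, Tlr2, Tlr4, Tlr7 and Tlr8 had log2 changes between 0.08 and 0.15. Markers of neurons or glia summed to 78.6 and 100.1 CPM in HI and 227.0 and 202.8 CPM in naive BAM-like cells, with all 6 detected, and their part in the changes was not tested. The 8 markers of mature neutrophils, all detected, summed to 35.1 and 28.4 CPM in HI and 33.2 and 30.6 CPM in naive BAM-like cells.

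**Figure D3:**
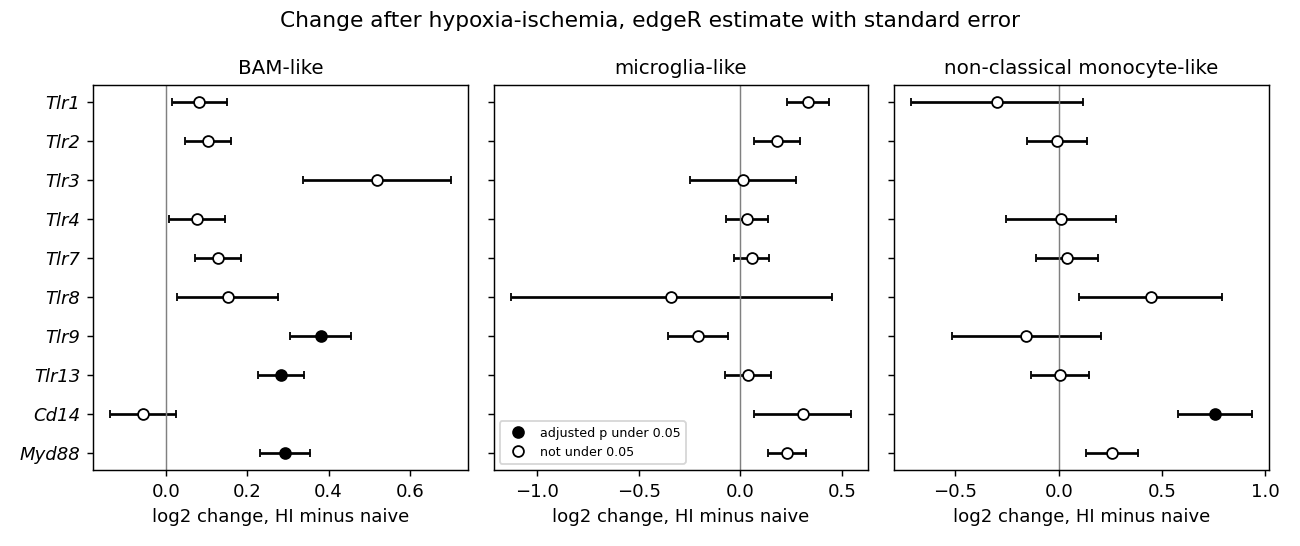
Log2 change of each gene, HI minus naive, with its standard error from edgeR, in BAM-like, microglia-like and non-classical monocyte-like cells (2 HI and 2 naive libraries); filled points had an adjusted p under 0.05. Tlr9, Tlr13 and Myd88 were called in BAM-like cells and Cd14 in non-classical monocyte-like cells; Tlr3 was too low to test in the last.

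In non-classical monocyte-like cells Cd14 was the member that changed. It stood at 73.1 and 101.9 CPM in HI and 63.0 and 44.5 CPM in naive cells (log2 change 0.75 ± 0.18, adjusted p = 0.0240, edgeR). The groups did not overlap, which was also so for Tlr8, Myd88 and Tlr1, none of them called. A Cd14 UMI was found in 30.2% and 33.8% of HI and 24.7% and 17.8% of naive cells of this class. This was 1 of 9 members called, where 1.92% of 8210 genes were called. The other 8 had log2 changes between -0.30 and 0.44, and Myd88, at 164.8 and 146.3 CPM in HI and 127.7 and 124.6 CPM in naive cells, had an adjusted p of 0.444 (log2 change 0.26 ± 0.13, edgeR).

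The Cd14 change in non-classical monocyte-like cells exceeded that in BAM-like cells by 0.76 ± 0.17 on the log2 scale (adjusted p = 0.00104, edgeR interaction), 1 of 10 members called where 2.06% of genes were. Both calls ended without HI 2 (log2 change 0.42 and adjusted p = 0.469 for the change, 0.31 and 0.720 for the difference) and without naive 2 (0.49 and 0.431, and 0.62 and 0.481). The change within the class was also not called with a stricter gate, at 0.65 (adjusted p = 0.110). The 8 mature neutrophil markers, all detected in this class, summed to 558.3 and 1706 CPM in HI and 238.8 and 440.5 CPM in naive cells. At the ratio of Cd14 to these markers in mature neutrophil-like cells of the same library, these sums would go with 2.47 and 4.44 CPM of Cd14 in HI and 0.401 and 0.0428 CPM in naive cells. That ratio itself differed between libraries, at 0.443% and 0.260% in HI and 0.168% and 0.00971% in naive libraries, and the part of neutrophil RNA in the Cd14 change was not tested.

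**Figure D4:**
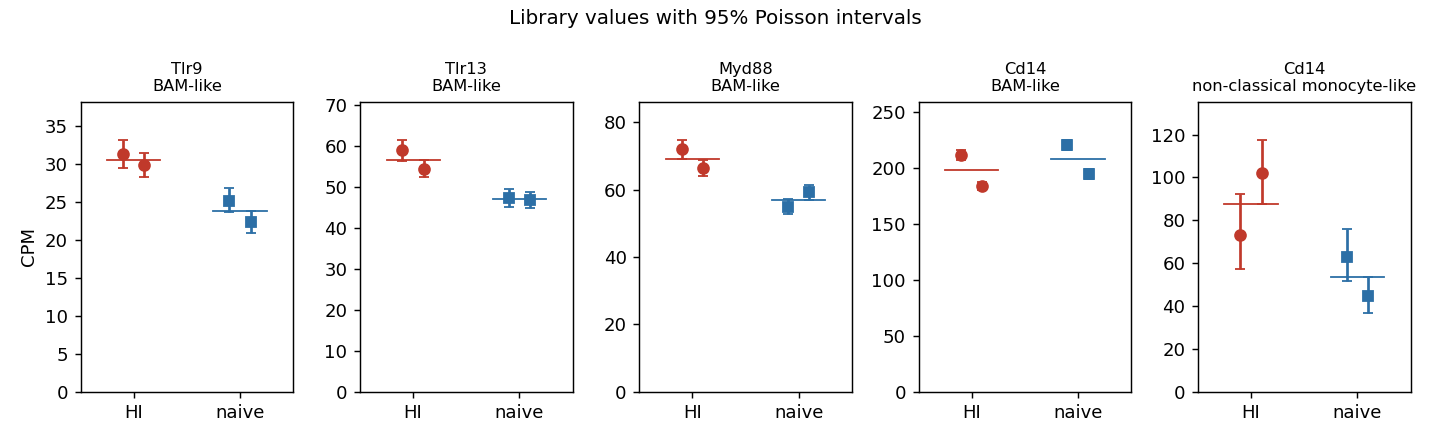
Level in each library of the genes called in BAM-like and non-classical monocyte-like cells, with Cd14 in BAM-like cells for comparison, in CPM. Circles are HI, squares naive, whiskers 95% Poisson intervals that cover counting error only and lines group means. The groups are apart in every panel but Cd14 in BAM-like cells, as they also were for some members that were not called.

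No member was called in microglia-like cells, where 0.256% of 10925 genes were called. Tlr1 came closest, with 59.9 and 52.4 CPM in HI and 44.7 and 43.1 CPM in naive cells (log2 change 0.33 ± 0.10, unadjusted p = 0.0117 and adjusted p = 0.205, edgeR). Tlr1 and Myd88 were the 2 members with an unadjusted p under 0.05, beside 1618 of the 10925 genes (edgeR). With 1 library left out, the log2 change ran from 0.24 to 0.42 for Tlr1 and from -0.22 to 0.69 for Cd14. Cd14 stood at 224.8 and 118.7 CPM in HI and 144.3 and 128.8 CPM in naive microglia-like cells, and the groups overlapped. Myd88 stood at 56.1 and 54.9 CPM in HI and 46.9 and 46.5 CPM in naive microglia-like cells (adjusted p = 0.306, edgeR). The groups were apart for 4 of the 10 members, none of them called. Tlr9 stood at 18.6 and 23.0 CPM in HI and 24.7 and 22.6 CPM in naive cells, and its change minus that in BAM-like cells was -0.60 ± 0.14 on the log2 scale (adjusted p = 0.122, edgeR interaction).

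The 3 smaller classes, with 27 to 29 cells in the smallest library, were fitted after their sizes were seen. In classical monocyte-like cells Cd14 stood at 2273 and 465.4 CPM in HI and 268.2 and 44.4 CPM in naive cells (log2 change 3.15 ± 0.81, adjusted p = 0.140, edgeR), and Myd88 at 216.0 and 207.6 CPM in HI and 134.1 and 109.0 CPM in naive cells (log2 change 0.83 ± 0.21, adjusted p = 0.142). None of 7 members was called there by edgeR, where 0.91% of genes were called. An unadjusted p under 0.05 was found for 3 of the 7 and for 659 of 5605 genes (edgeR). With 1 library left out, the log2 change ran from 1.58 to 4.98 for Cd14 and from 0.69 to 0.99 for Myd88. Mature neutrophil markers summed to 20185 and 14741 CPM in HI and 3548 and 4431 CPM in naive classical monocyte-like cells, with 7 of 8 detected and Retnlg at 0, and at the ratio of Cd14 to these markers in mature neutrophil-like cells of the same library they would go with 89.3 and 38.4 CPM of Cd14 in HI and 5.97 and 0.430 CPM in naive cells. The part of neutrophil RNA in the Cd14 values was not tested. In mature neutrophil-like cells Cd14 stood at 1094 and 769.8 CPM in HI and 331.7 and 23.4 CPM in naive cells (log2 change 2.74 ± 0.95, adjusted p = 0.593, edgeR), and none of 5 members and 0% of 3869 genes were called, with 279 genes at an unadjusted p under 0.05 and 21 genes called by DESeq2. In B cell-like cells Tlr9 stood at 10.5 and 18.8 CPM in HI and 35.6 and 34.0 CPM in naive cells, from 4, 15, 26 and 31 UMIs (log2 change -1.09 ± 0.39, unadjusted p = 0.0201, edgeR). None of 3 members tested in B cell-like cells was called after adjustment, where 0.12% of genes were.

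Over all kept cells, a change in a class's share and a change in RNA per cell cannot be told apart. There all 10 members were higher on average in HI and none was called by edgeR, where 0.51% of 14705 genes were. An unadjusted p under 0.05 was found for 6 members and for 2917 of the 14705 genes (edgeR). The log2 changes lay between 0.13 (Tlr4) and 0.34 (Cd14 and Myd88), with adjusted p from 0.0866 for Tlr13 upward (edgeR). Under DESeq2, Tlr13, Tlr2 and Myd88 passed (adjusted p = 0.0138, 0.0425 and 0.00262), in a fit that called 749 of 20344 genes.

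The rest of the pathway was read from 7 lists of 73 genes: other receptors, co-receptors and chaperones, other adaptors, kinases and ligases, transcription factors, inhibitors, and target cytokines and enzymes. In BAM-like cells 8 of the 68 tested were called, all higher, where 4.92% of all genes were called. The targets gave 5 of 14 tested: Cxcl10, Cxcl2, Ccl4, Il1b and Tnf, with a median log2 change of 0.68 over the 14. Tnf, an early inflammatory cytokine, stood at 18.8 and 18.1 CPM in HI and 10.3 and 11.8 CPM in naive cells (log2 change 0.75 ± 0.09, adjusted p = 0.0107, edgeR). Cxcl10, an interferon-induced chemokine, stood at 5.14 and 1.58 CPM in HI and 0.129 and 0.272 CPM in naive cells (log2 change 4.00 ± 0.69, adjusted p = 0.0249, edgeR). Ccl4, a chemokine, stood at 11.2 and 6.90 CPM in HI and 3.07 and 3.78 CPM in naive cells (log2 change 1.39 ± 0.23, adjusted p = 0.0223, edgeR). Cxcl2 (log2 change 1.58) and Il1b (1.31) were called too, but with the stricter gate they stood at 0.94 (adjusted p = 0.555) and 0.96 (adjusted p = 0.452), and Cxcl10 at 2.37 (adjusted p = 0.220, edgeR). The Ccl4 call ended there too (adjusted p = 0.0786).

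Of the co-receptors and chaperones, 2 of 8 were called higher in BAM-like cells. Lbp, which brings lipopolysaccharide to Cd14, stood at 17.9 and 20.4 CPM in HI and 12.4 and 10.6 CPM in naive cells (log2 change 0.75 ± 0.11, adjusted p = 0.0176, edgeR). Hsp90b1, the chaperone that folds most Toll-like receptors, stood at 992.3 and 1072 CPM in HI and 762.9 and 809.8 CPM in naive cells (log2 change 0.41 ± 0.07, adjusted p = 0.0246, edgeR). Tlr5 was called as well, at 42.8 and 41.7 CPM in HI and 35.2 and 35.9 CPM in naive cells (log2 change 0.26 ± 0.06, adjusted p = 0.0478, edgeR). None of the 5 other adaptors, 17 kinases and ligases, 9 transcription factors or 12 inhibitors was called in BAM-like cells. Without naive 2 the calls of Lbp, Il1b, Cxcl2, Cxcl10 and Ccl4 ended, and without naive 1 those of Cxcl10 and Ccl4. The calls of Hsp90b1 and Tlr5 ended without either naive library, and that of Tlr5 also without HI 1.

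In non-classical monocyte-like cells 3 of 56 tested were called, where 1.92% of all genes were. Lbp rose, at 26.8 and 40.5 CPM in HI and 17.8 and 13.8 CPM in naive cells (log2 change 1.16 ± 0.26, adjusted p = 0.0137, edgeR). Ly86, also known as MD-1, the partner of the receptor relative Cd180, fell to 172.0 and 186.3 CPM in HI, against 252.4 and 267.4 CPM in naive cells (log2 change -0.56 ± 0.12, adjusted p = 0.00939, edgeR). Cd36, a scavenger receptor that works with Tlr2, fell to 230.7 and 156.7 CPM in HI, against 317.8 and 246.0 CPM in naive cells (log2 change -0.60 ± 0.15, adjusted p = 0.0286, edgeR). The Lbp and Cd36 calls ended without HI 2, the Cd36 call without naive 1 and the Lbp and Ly86 calls without naive 2. No pathway gene of the 63 tested was called by edgeR or DESeq2 in microglia-like cells. An unadjusted p under 0.05 was found for 9 of the 63, beside 1618 of all 10925 genes tested in that class (edgeR).

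In classical monocyte-like cells 4 of 48 were called, where 0.91% of 5605 genes were. Cxcl2 stood at 897.5 and 346.0 CPM in HI cells with no UMI in either naive library, at least 185-fold higher against a floor of 3 counts over both naive libraries (adjusted p = 0.00206, edgeR). Ptgs2, the inducible prostaglandin synthase, was at 93.6 and 46.1 CPM in HI cells with no naive UMI, at least 21.5-fold higher (adjusted p = 0.0162, edgeR). Il1b stood at 2222 and 568.5 CPM in HI and 55.6 and 52.5 CPM in naive cells (log2 change 4.72 ± 0.59, adjusted p = 0.00917, edgeR), while Ly86 fell to 326.4 and 356.9 CPM in HI, against 630.4 and 641.9 CPM in naive cells (log2 change -0.87 ± 0.16, adjusted p = 0.0493, edgeR). The Ly86 call ended without naive 1 or naive 2. The higher neutrophil marker sums given for this class apply to these genes too, and mature neutrophil-like cells held 1321 and 898.1 CPM of Cxcl2 in HI and 234.1 and 3.89 CPM in naive libraries. Over all kept cells Lbp and Cxcl2 were the 2 of 71 called, where 0.51% of all genes were (log2 changes 1.00 and 4.35, adjusted p = 0.0260 and 0.0376, edgeR), and neither was called without naive 1 or without naive 2.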

How the data were processed

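Meningeal cells of 4 pools (2 HI, 2 naive) were profiled as single cells with a 10x Genomics 5' kit, per the labels' protocols. In the deposited gene expression files each value is a raw count of UMIs for 1 gene in 1 barcode, and the deposited receptor files hold UMI counts per contig. The tools named are Cell Ranger 2.2.0 and Seurat, and the build is mm10/GRCm38, per the submitters' processing notes; further steps are not given in the sources used here.

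The members and lists were chosen with earlier results of these data known. A barcode was dropped if it had fewer than 200 genes or over 10% of its UMIs from mitochondria. Scrublet (scanpy 1.11.5) called 1 to 3 doublets per library on its own, so the highest scores were removed at 0.8% per 1000 barcodes (964 cells). A class needed at least 0.4 of its markers and a lead of 0.2 over other lineages; these limits were set after the class sizes were seen, and 797 cells fell just outside. Counts were summed per library and class and tested with edgeR 4.0.16 (filterByExpr, TMM, quasi-likelihood) in classes with at least 40 cells in each library, and over all kept cells; 3 classes with at least 25 cells were added after their sizes were seen, and naive levels were tested in classes with at least 20 cells in both naive libraries; DESeq2 1.42.0 was an alternative. BH adjustment ran over all genes, and calls are at 0.05. The fit was tested on simulated data with known changes; it gave the right sign for every true change it called, but in most comparisons, the HI changes in BAM-like cells and the naive levels among them, more of its calls were false than the threshold allows, so adjusted p-values just under 0.05 are less firm than printed. Named pathway genes are those called and not overlapping between the groups, up to 5 in each direction; Tnf, Hsp90b1, Tlr5 and Tlr11 were named after their values were seen. P-values measure only the spread between these pools. Intervals cover counting error only.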

Additional observations from a re-analysis of the deposited data

Results flagged for a closer look

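The HI change differed between classes, by edgeR's test of the difference itself, for the genes given here. Of all genes, 0.646% were called for microglia-like minus BAM-like and 2.06% for non-classical monocyte-like minus BAM-like cells. For non-classical monocyte-like minus microglia-like cells 0.273% were called. The Cd14 difference was not called without HI 2 or without naive 2. The changes of Cxcl10, Il1b and Ccl4 in BAM-like cells were not called with the stricter gate. Cd14 changed by 0.76 more on the log2 scale in non-classical monocyte-like than in BAM-like cells (adjusted p = 0.00104, edgeR). A difference below 0 can stand for a smaller rise or for a fall. The log2 change of Cxcl10 was lower in microglia-like and in non-classical monocyte-like than in BAM-like cells. The log2 differences were -3.74 (adjusted p = 0.00541, edgeR) and -4.50 (adjusted p = 0.00531, edgeR). Non-classical monocyte-like cells held 0, 4, 2 and 8 UMIs of Cxcl10 in HI 1, HI 2, naive 1 and naive 2. Il1b (-1.03, adjusted p = 4.57e-05, edgeR) and Ccl4 (-1.93, adjusted p = 0.000171, edgeR) also had a lower log2 change in non-classical monocyte-like than in BAM-like cells. Il1b stood at 248.2 and 418.5 CPM in HI and 265.5 and 262.9 CPM in naive non-classical monocyte-like cells. Ly86 changed by -0.49 (adjusted p = 0.0260, edgeR) relative to BAM-like and by -0.83 (adjusted p = 0.00538, edgeR) relative to microglia-like cells in the same class. It stood at 2995 and 3400 CPM in HI and 2622 and 2648 CPM in naive microglia-like cells. Tnf (-0.69, adjusted p = 0.00161, edgeR) and Hsp90b1 (-0.63, adjusted p = 0.000135, edgeR) also had a lower log2 change in non-classical monocyte-like than in BAM-like cells. That of Hsp90b1 was lower in microglia-like than in BAM-like cells too (-0.34, adjusted p = 0.0434, edgeR). Groups of 2 libraries were too small to look for a single library that stood apart.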

How the results depend on the processing

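The HI and naive pools carry the numbers 1 and 2, but no label pairs them, and deviations of same-numbered pools correlated at 0.07 in BAM-like, 0.13 in microglia-like, 0.05 in non-classical monocyte-like and -0.02 in all kept cells. Genes called, HI against naive, numbered as follows. All kept cells gave 75, with 749 by DESeq2, 257 without the filter on low counts, 162 with a replicate block and 2 to 265 when 1 library was left out. BAM-like cells gave 647, with 1935 without the filter, 1980 with the replicate block and 90 to 1553 with 1 library left out. Microglia-like cells gave 28, with 104 by DESeq2, 704 without the filter, 675 with the block, 43 with the stricter gate, 11 by clusters and 3 to 750 with 1 library left out. Non-classical monocyte-like cells gave 158, with 40 by DESeq2, 247 without the filter, 348 with the block, 240 by clusters and 104 to 257 with 1 library left out. Classical monocyte-like cells gave 51, with 305 without the filter, 141 with the block, 23 with the stricter gate and 112 to 366 with 1 library left out. Mature neutrophil-like cells gave 0, with 21 by DESeq2, 93 without the filter, 1 with the block, 65 with the stricter gate and 0 to 83 with 1 library left out. B cell-like cells gave 8, with 19 by DESeq2, 145 without the filter, 2 by clusters and 1 to 150 with 1 library left out. Differences of the change gave 83 (8 to 711) for microglia-like minus BAM-like, 262 (62 to 261) for non-classical monocyte-like minus BAM-like and 30 (7 to 162) for non-classical monocyte-like minus microglia-like cells, and the Lyve1 and Fcna division gave 1806 (1042 to 1695). The causes were not tested.

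The log2 values that turned sign were all of results not called in the reported fit. In microglia-like cells Tlr13 was -0.0097 with the stricter gate and Tlr3 was -0.013 with the replicate block, -0.0068 with doublets kept and -0.037 with the stricter gate. In non-classical monocyte-like cells Tlr13 was -0.0041 by DESeq2 and -0.0091 without the filter, Tlr7 -0.035 with the stricter gate and -0.078 by clusters, and Tlr2 0.015 with doublets kept, 0.0061 with the stricter gate and 0.051 by clusters. Tlr4 was -0.0028 without the filter, -0.012 with doublets kept and -0.020 with the stricter gate, Tlr1 0.27 by clusters and Tlr9 0.12 with the stricter gate. Naive levels against BAM-like cells turned for Tlr13 (-0.052) and Tlr9 (-0.041) in microglia-like cells without the filter, Tlr2 in non-classical monocyte-like cells with the stricter gate (-0.031) and Tlr4 in mature neutrophil-like cells with DESeq2's size factor method (0.0081).

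With 1 library left out, the ranges that crossed 0 were -0.047 to 0.57 for Tlr3 in all kept cells, and -0.0090 to 0.16 for Tlr4 and -0.14 to 0.038 for Cd14 in BAM-like cells. In microglia-like cells they were -0.087 to 0.15 for Tlr13, -0.68 to 0.48 for Tlr8, -0.30 to 0.26 for Tlr3 and -0.22 to 0.69 for Cd14. In non-classical monocyte-like cells they were -0.16 to 0.16 for Tlr13, -0.072 to 0.18 for Tlr7, -0.20 to 0.15 for Tlr2, -0.085 to 0.15 for Tlr4 and -0.55 to 0.040 for Tlr9. The differences of the Cd14 change ran from -0.064 to 0.69 for microglia-like minus BAM-like and from -0.28 to 1.13 for non-classical monocyte-like minus microglia-like cells, and Tlr3 in dividing BAM-like cells from -0.10 to 0.12. DESeq2 gave no adjusted p for Cd14 in non-classical monocyte-like cells. Classes of 14 to 77 cells per library, such as dendritic cell-like and B cell-like cells, limit what could be detected for low receptors.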
